A study of Mus musculus with 17 samples.

Results

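The genes described here are 10 proteoglycans and matrix glycoproteins, chosen by name and found as 10 of the 8446 rows of a table of single-cell expression. They comprise the small leucine-rich proteoglycans Lum and Bgn, the other proteoglycans Vcan and Prg4, and the glycoproteins Fn1, Fbln2, Ecm1, Mgp, Abi3bp and Fndc1. The table holds 17 cells from the back skin of adult C57BL/6 mice of the genotype Prrx1-CreERT;Tomato, which had been injected with tamoxifen at 2 mg per 30 g body weight daily on 3 days. In these mice a tamoxifen-inducible Cre recombinase acts in cells with Prrx1 activity and switches on a lasting red reporter, so the cells are those that the reporter had marked at sorting. All 17 cells carry the same genotype and treatment and form 1 group, no animal is named for any cell, and no untreated or Tomato-negative sample was analysed here. The cells were therefore handled as 1 sample: means, SDs and ranges are over cells, and there are no p-values.

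The matrix around dermal fibroblasts is built of collagen fibrils to which small proteoglycans bind. Lumican and biglycan have leucine-rich repeat cores and are known to regulate the width and spacing of fibrils. Lumican can carry keratan sulfate, and biglycan chondroitin or dermatan sulfate. No sugar chain was measured here. Glycoproteins such as fibronectin and the fibulins link cells, elastic fibres and basement membranes to that network, and versican binds hyaluronan into a hydrated gel.

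Values are the deposited log-scale levels, read as log2 of FPKM plus 1. FPKM counts fragments per kilobase of transcript at a common library size, so it is a level per length. Levels of different genes are compared on it here, but for libraries from a 3′ end kit the length term itself moves the order of genes, so comparisons that turn on it are also given with FPKM multiplied by exonic length. After that multiplication each cell was rescaled to its former FPKM sum. A gene's own rise or fall between the 2 scales therefore also holds this rescaling. Neither the logarithm's base nor its added constant is given with the data, so each FPKM threshold rests on this reading. No read count or depth of a cell is known. Sorted from low to high, the values above 3 differed between cells by 0.0165 or less at any position, so a value says where a gene stood within its cell rather than how much RNA the cell held. In the cells, 871 to 1766 rows stood at the lowest value. Low values were alike within cells 1 to 5, cells 6 to 14 and cells 15 to 17. These 3 sets were found from the data, on 224 rows under 2.5 in all cells, and are not groups of the study. Of 9 measured fibroblast markers each cell had 8 or 9 at FPKM 1 or more, with summed log2 levels of 59.1 to 86.7. Of 6 measured pericyte and smooth muscle markers a cell had 0 to 5 (summed level 0.15 to 11.4), of 4 adipocyte markers 0 to 4 (0.77 to 24.6), of 3 endothelial markers 0 to 2 (0.42 to 7.57) and of 2 keratinocyte markers 0 or 1. Of 3 melanocyte and Schwann cell markers a cell had 0 to 3 (0.75 to 13.6). Of 4 cartilage and synovial markers, Prg4 among them, a cell had 2 to 4 (5.66 to 18.1). The only measured immune marker, Csf1r, was at FPKM 1 or more in 5 cells.

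By mean level over the cells, all 10 genes were among the better expressed rows, from rank 17 for Ecm1 to rank 1526 for Prg4. In single cells some stood much lower. Prg4 had a median rank of 3125 and a lowest of 4152 in cell 7. The lowest rank was 4718 for Fndc1, in cell 9, and 3946 for Vcan, in cell 2. Of the 10, 9 were at FPKM 1 or more in all 17 cells, where 13% of all rows were, and Fndc1 was in 15 cells (exact Clopper-Pearson 95% interval 63.6% to 98.5%, counting error over cells only). At FPKM 10 or more, a log2 value of 3.46, the genes found in every cell were Lum, Bgn, Fn1, Fbln2 and Ecm1, 5 of the 10, where 5.65% of all rows were. The median of the 10 means was 7.21 on the log2 scale, against 1.89 over all rows. Their spread between cells was ordinary for rows found in every cell: the median SD was 1.65 for the 10 genes and 1.54 for the 1100 rows at FPKM 1 or more in all cells.

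**Figure D1:**
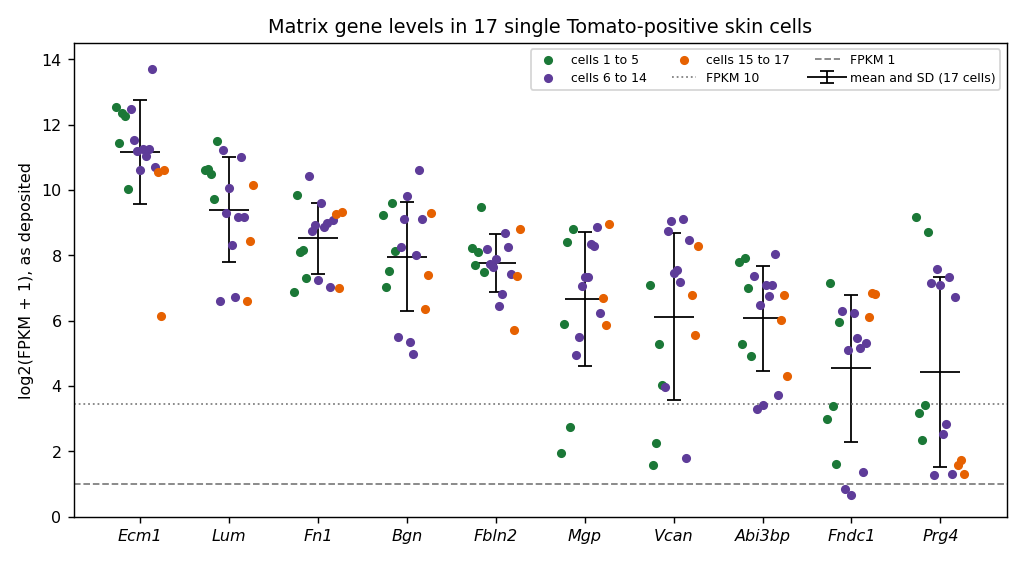
Level of each gene in each of the 17 cells, on the deposited log2(FPKM + 1) scale, ordered by mean. Points are single cells coloured by the set of cells with similar low values, and black bars give the mean and SD over 17 cells. Ecm1 has the highest mean, with 1 point far below the rest at 6.16, Fn1 and Fbln2 have narrow ranges, and Prg4 has no value between 3.42 and 6.72.

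Lum, which encodes lumican (ENSMUSG00000036446, chromosome 10 from 97565128 to 97572703 in GRCm38), had a lowest log2 level of 6.59 in cell 15, a median of 9.74 and a highest of 11.49 in cell 5. Cells 6, 11 and 15 stood apart at 6.61, 6.73 and 6.59, and the other 14 cells were at 8.32 or above. By set, mean log2 levels were 10.60 in cells 1 to 5 (SD 0.62), 9.07 in cells 6 to 14 (SD 1.64) and 8.39 in cells 15 to 17 (SD 1.79). The ranges of these sets overlap.

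Bgn, which encodes biglycan (ENSMUSG00000031375, chromosome X from 73483602 to 73495933), ran from a log2 level of 4.99 in cell 11 through a median of 8.14 to 10.61 in cell 13. Its lowest cells were 11, 10 and 6, at 4.99, 5.35 and 5.50. Cells 6 and 11 were thus low for both small leucine-rich proteoglycans, and cell 13 was high for both, with Lum at 11.03. Lum was above Bgn in 17 of 17 cells, by a mean difference of 1.44 on the log2 scale (SD 1.26, from 0.06 in cell 14 to 3.63 in cell 2). That order depends on the length term. With FPKM multiplied by exonic length Lum was above Bgn in 7 of 17 cells, by a mean of 0.13 (SD 1.26).

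The promoter window of Bgn is shown because Bgn stood in 4 of the 6 pairs of genes with the strongest correlations, given further on. It is the 250 bases before the start site in RefSeq on GRCm38.p6, chrX:73483351-73483600, plus strand, with capitals marking the GC box GGGCGG or its reverse complement CCGCCC.
Bgn: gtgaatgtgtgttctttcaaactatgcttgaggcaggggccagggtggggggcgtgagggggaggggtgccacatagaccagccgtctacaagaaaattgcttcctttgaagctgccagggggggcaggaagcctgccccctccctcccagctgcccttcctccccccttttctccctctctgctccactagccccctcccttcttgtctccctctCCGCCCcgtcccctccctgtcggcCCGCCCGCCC
The window is 64.4% G and C, against a median of 52.4% over 32851 RefSeq windows of the same length, and holds 3 GC box matches, of which the nearest starts 6 bases before the start site. A GC box match is present in 32.7% of all windows. The TATA box TATAAA, searched on both strands like the other motifs, is in 12.4% of all windows and has no match in this one.

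Vcan, which encodes versican, the large hyaluronan-binding chondroitin sulfate proteoglycan (ENSMUSG00000021614, chromosome 13 from 89655312 to 89742509), had a lowest log2 level of 1.58 in cell 2, a median of 7.08 and a highest of 9.11 in cell 12. Cells 2, 13 and 3 were low, at 1.58, 1.81 and 2.26, and the other 14 cells were at 3.97 or above. Its SD of 2.56 was larger than that of 94.2% of the rows found in every cell. Mean log2 levels were 4.04 in cells 1 to 5 (SD 2.24), 7.03 in cells 6 to 14 (SD 2.51) and 6.88 in cells 15 to 17 (SD 1.37).

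Prg4 encodes lubricin, a mucin-like proteoglycan that lubricates joint surfaces (ENSMUSG00000006014, chromosome 1 from 150449412 to 150466165). Its log2 level was 1.27 in cell 7 at the lowest, 3.17 at the median and 9.17 in cell 1 at the highest. It was the most uneven of the 10 genes: cells 1, 5, 6, 8, 9, 12 and 14 lay between 6.72 and 9.17, the other 10 cells lay between 1.27 and 3.42, and none lay between. Thus Prg4 was at FPKM 10 or more in 7 of 17 cells (exact 95% interval 18.4% to 67.1%), and those 7 were also at FPKM 100 or more. Its SD of 2.92 exceeded that of 97.7% of the rows found in every cell. In cells 15 to 17 its mean was 1.55 (SD 0.23), against 5.37 (SD 3.30) in cells 1 to 5 and 4.87 (SD 2.78) in cells 6 to 14.

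Prg4 shares 204 exonic bases near its 3′ end (chr1:150449732-150449935) with Tpr, a nuclear pore gene on the opposite strand that is also in the table. Whether counting used the strand is not known here, so reads from that stretch cannot be assigned to either gene with certainty. Tpr had a mean log2 level of 5.17 (SD 2.61), and its r with Prg4 over the 17 cells was -0.02 (Spearman rho -0.20). In cell 13 Tpr was at its highest, 9.45, while Prg4 was at 1.32. With cartilage and synovial genes Prg4 had an r of -0.23 with Sox9, -0.29 with Sox5 and 0.23 with Clu, the last being 0.00 without cell 1. Their part in the Prg4 pattern was not tested further.

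Among the glycoproteins, Ecm1 had the highest level per length of the 10 genes in 15 of 17 cells. It encodes extracellular matrix protein 1, a secreted skin glycoprotein that binds several basement membrane and matrix proteins (ENSMUSG00000028108, chromosome 3 from 95734147 to 95739569). Its log2 level was 6.16 in cell 16 at the lowest, 11.25 at the median and 13.69 in cell 13 at the highest. In cell 13 it was the highest of all 8446 rows. It ranked among the first 101 rows in every cell except cell 16, where it ranked 1367. The next lowest cell, cell 5, was at 10.02, and the mean was 11.16 with cell 16 and 11.47 without it. Cell 16 also had the highest summed adipocyte marker level, 24.6 against a median of 8.98 over all cells. Its summed melanocyte and Schwann cell marker level was the highest too, 13.6 against a median of 3.23. The part of either in its Ecm1 value was not tested. An annotated microRNA, Mir7014, lies within Ecm1 exons on the same strand and has no row.

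The promoter window of Ecm1 is shown because Ecm1 had the highest mean level of the set. It is the 250 bases before the RefSeq start site on GRCm38.p6, chr3:95739570-95739819, minus strand, with capitals marking matches to the AP-1 motif TGAGTCA, the GC box and the TATA box, in that order.
Ecm1: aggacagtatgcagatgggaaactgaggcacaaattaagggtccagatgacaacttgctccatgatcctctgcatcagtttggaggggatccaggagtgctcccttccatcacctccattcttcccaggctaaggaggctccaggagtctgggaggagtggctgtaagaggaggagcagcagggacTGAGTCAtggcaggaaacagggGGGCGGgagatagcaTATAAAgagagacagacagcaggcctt
The TATA box match starts 27 bases before the start site, the GC box match 42 and the AP-1 match 64. The AP-1 motif is in 4.46% of all windows and has no match in the Bgn window. The CCAAT box (CCAAT or ATTGG), found in 33.8% of all windows, has no match in either.

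Fn1, which encodes fibronectin, the main cell-adhesive glycoprotein of provisional matrix (ENSMUSG00000026193, chromosome 1 from 71585520 to 71653200), was even across cells. Its log2 level was 6.87 in cell 1 at the lowest, 8.87 at the median and 10.43 in cell 6 at the highest. It was at FPKM 100 or more in all 17 cells, which none of the other 9 genes was, and 26.4% of the rows found in every cell had a smaller SD than its 1.10. At its 5′ end Fn1 shares 292 exonic bases with an antisense gene model, Apol7d, that has no row.

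Fbln2 encodes fibulin-2, which joins elastic fibres and basement membranes (ENSMUSG00000064080, chromosome 6 from 91212455 to 91272540). It was the steadiest of the 10 genes, with log2 levels from 5.71 in cell 15 through a median of 7.73 to 9.49 in cell 4. Its SD was 0.90, and 16.6% of the rows found in every cell had a smaller one. Fn1 and Fbln2 were both at FPKM 10 or more in every cell.

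Mgp, whose product matrix Gla protein inhibits calcification after vitamin K-dependent carboxylation, lies on chromosome 6 from 136872435 to 136875823 (ENSMUSG00000030218). Its log2 level was lowest in cell 1 at 1.95, with a median of 7.07 and a highest value of 8.97 in cell 17. Cell 4 was also low at 2.75, and the other 15 cells were at 4.96 or above. Both low cells belong to cells 1 to 5, whose mean of 5.56 had an SD of 3.15, against 7.10 (SD 1.33) in cells 6 to 14.

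Abi3bp, which encodes a matrix protein known as target of Nesh-SH3 (ENSMUSG00000035258, chromosome 16 from 56477878 to 56690135), ranged in log2 level from 3.30 in cell 7 through a median of 6.77 to 8.04 in cell 13. It was under 3.46, the value of FPKM 10, in cells 7 and 9 only.

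Fndc1 encodes a secreted protein with fibronectin type III domains (ENSMUSG00000071984, chromosome 17 from 7738569 to 7827302). Its log2 level was 0.66 in cell 9 at the lowest, 5.31 at the median and 7.15 in cell 2 at the highest. Cells 9, 7, 13, 4, 1 and 3 were low, from 0.66 to 3.37, and the other 11 were at 5.09 or above. In cells 15 to 17 all values were high, with a mean of 6.59 (SD 0.41), the narrowest range of Fndc1 in any of the 3 sets. The mean was 4.22 (SD 2.27) in cells 1 to 5 and 4.05 (SD 2.37) in cells 6 to 14.

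The Fndc1 promoter window is shown beside that of Bgn because the levels of Fndc1 and Bgn ran in opposite directions. It is the 250 bases before the RefSeq start site on GRCm38.p6, chr17:7827303-7827552, minus strand, with capitals marking a TATA box match as its reverse complement TTTATA and a GC box match.
Fndc1: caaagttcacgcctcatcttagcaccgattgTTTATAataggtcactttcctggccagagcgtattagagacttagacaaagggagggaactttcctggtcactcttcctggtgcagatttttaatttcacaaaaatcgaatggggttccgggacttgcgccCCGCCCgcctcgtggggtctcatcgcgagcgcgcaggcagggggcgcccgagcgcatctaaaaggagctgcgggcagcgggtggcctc
Both the Bgn and Fndc1 windows hold a GC box match, here 88 bases before the start site. The TATA box letters start 219 bases before it. The Fndc1 window is 56.0% G and C and has no CCAAT or AP-1 match. RefSeq windows were matched for Bgn, Ecm1, Fndc1, Vcan and Fbln2, 5 of the 10 genes.

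By mean log2 level per length the order was Ecm1 (11.16), Lum (9.40), Fn1 (8.52), Bgn (7.96), Fbln2 (7.77), Mgp (6.66), Vcan (6.13), Abi3bp (6.08), Fndc1 (4.55) and Prg4 (4.43). No neighbours in this order differed by more than the SD of their within-cell difference. The widest step, from Ecm1 to Lum, was 1.76 (SD 2.00), with Ecm1 higher in 15 of 17 cells. Lum exceeded Fn1 by 0.88 (SD 2.35) and in 13 cells, whereas Bgn and Fbln2 were 0.19 apart (SD 1.35), Vcan and Abi3bp 0.05 (SD 3.52) and Fndc1 and Prg4 0.12 (SD 3.70).

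The libraries came from a 3′ end kit, which yields fragments near the end of a transcript whatever its length, so dividing by length lowers long genes. With FPKM multiplied by exonic length, Ecm1 still had the highest mean (10.79) but was above Fn1 in 9 of 17 cells, by 0.43 (SD 1.78). Fn1 (10.35) passed Lum (8.99), while Mgp, the shortest gene with 1187 exonic bases, moved from place 6 to place 9. Vcan, the longest with 14462 exonic bases, had a mean of 8.20 on that scale. Fn1 then exceeded Lum in 11 of 17 cells, the difference of Lum minus Fn1 being -1.37 (SD 2.35). Exonic length here is the union of all annotated exons and may exceed the transcript that a cell makes.

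**Figure D2:**
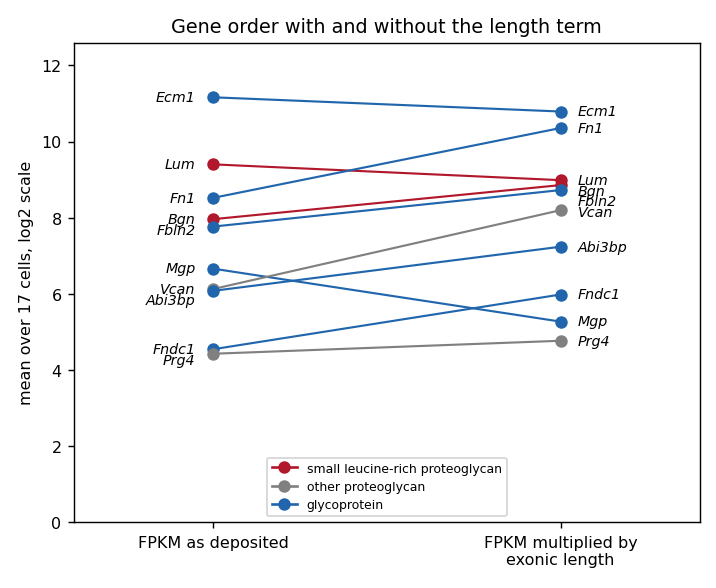
Mean log2 level of each gene over 17 cells, on FPKM as deposited (left) and on FPKM multiplied by exonic length (right), with lines joining the same gene and colours giving its class. On the right each cell was rescaled to its former FPKM sum. Fn1 and Lum exchange places, Vcan rises from 6.13 to 8.20 and Mgp falls from 6.66 to 5.27.

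Set class against class, Lum and Bgn stood somewhat above the 6 glycoproteins, but with a wide spread between cells. They are 2 of 8 measured small leucine-rich proteoglycans, of 15 listed. The median of the mean log2 levels was 4.57 for the 6 others and 4.17 for the 35 other measured glycoproteins. The difference therefore describes the genes chosen rather than the whole class. The mean log2 level of Lum and Bgn in a cell was 8.68 on average (SD 1.51), and that of the 6 glycoproteins was 7.46 (SD 0.69). The difference averaged 1.23 (SD 1.88), less than its own SD, and was above 0 in 13 of 17 cells. It was lowest in cell 6 at -2.23 and highest in cell 9 at 3.75. The cells below 0 were 6, 11, 10 and 15, at -2.23, -2.03, -1.16 and -0.93. In those cells Lum and Bgn were low while Fn1 was at 10.43, 8.87, 9.59 and 9.27 respectively. By set, the difference averaged 2.06 in cells 1 to 5, 0.96 in cells 6 to 14 and 0.64 in cells 15 to 17.

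The pair of other proteoglycans did not share the level of Lum and Bgn. The mean of Vcan and Prg4 was 5.28 (SD 2.13), below the glycoproteins by 2.18 (SD 2.38) and above them in 4 of 17 cells. With Vcan and Prg4 counted beside Lum and Bgn, the difference of proteoglycans minus glycoproteins turned to -0.48.

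**Figure D3:**
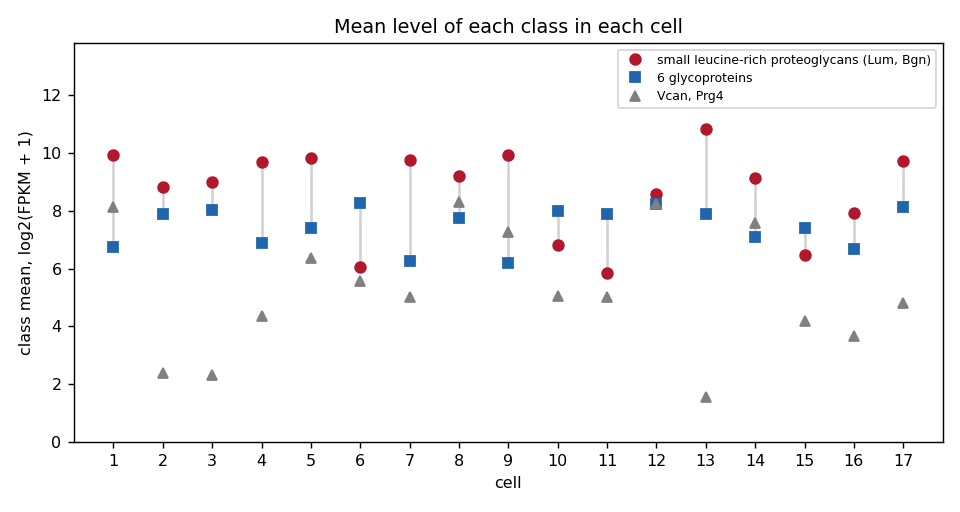
Class means in each cell, in log2(FPKM + 1), for Lum and Bgn (circles), the 6 glycoproteins (squares) and Vcan with Prg4 (triangles), with a grey line joining circles to squares. The circles lie above the squares in 13 cells and below them in cells 6, 10, 11 and 15.

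The class means hide a pattern that cuts across the classes. Lum and Bgn varied together over the cells, Fbln2 went with them although it is a glycoprotein, and Fn1 and Fndc1 varied together and opposite to Lum and Bgn. These correlations are descriptions over 17 cells that share 1 normalisation, in which a gene's value depends on the others of its cell. Among the 45 pairs of the 10 genes, r was 0.5 or more in 3 pairs, where 2.50% of all pairs among 3964 rows detected in at least 9 cells were, and -0.5 or less in 3 pairs, where 2.43% were. The pairs are not independent, since these 6 involve only Lum, Bgn, Fbln2, Fn1 and Fndc1. Over all 45 pairs the mean r was -0.02, so the 10 genes did not move as 1 group.

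Lum and Bgn had an r of 0.70 (Spearman rho 0.56), 0.61 without the 2 cells farthest from the median of Lum, and 0.84 in cells 6 to 14 alone. Bgn and Fbln2 had an r of 0.60 (rho 0.63), 0.44 without the 2 cells farthest from the median of Bgn, and 0.52 in cells 6 to 14. Lum and Fbln2 were at 0.49 (rho 0.43), which fell to 0.31 without cell 15, the lowest cell for both. Subtracting the means of the 3 sets gave 0.75, 0.59 and 0.38 for these pairs. The other sets hold 5 and 3 cells, too few for a correlation of their own.

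On the other side, Fn1 and Fndc1 had an r of 0.52 (rho 0.58), which was 0.68 without cell 16 and 0.82 in cells 6 to 14. Cell 16 combined the second highest Fndc1, 6.85, with an Fn1 of 7.01. Subtracting set means gave 0.61.

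Between the sides, Bgn and Fndc1 had the lowest r of the 45 pairs, -0.60 (rho -0.63), with -0.61 without the 2 cells farthest from the median of Bgn, -0.69 in cells 6 to 14 and -0.63 with set means subtracted. Bgn and Fn1 were at -0.57 (rho -0.50; -0.76 in cells 6 to 14). Lum and Fn1 were at -0.50 (rho -0.44), which was -0.31 without the 2 cells farthest from the median of Lum and -0.70 in cells 6 to 14. Lum and Fndc1 were at -0.47 (rho -0.39, and -0.82 in cells 6 to 14). Fbln2 was less opposed, at -0.19 with Fn1 (rho -0.16) and -0.39 with Fndc1 (rho -0.37). Cell 13 shows the contrast at one end, with Bgn at 10.61, Lum at 11.03, Fn1 at 7.02 and Fndc1 at 1.36. Cell 6 shows it at the other, with Bgn at 5.50, Lum at 6.61, Fn1 at 10.43 and Fndc1 at 6.29. Rows at the lowest value, the measure of library complexity that remained, had an r of 0.24 with Bgn, 0.21 with Lum, -0.35 with Fn1 and 0.06 with Fndc1; their part in the contrast was not tested.

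**Figure D4:**
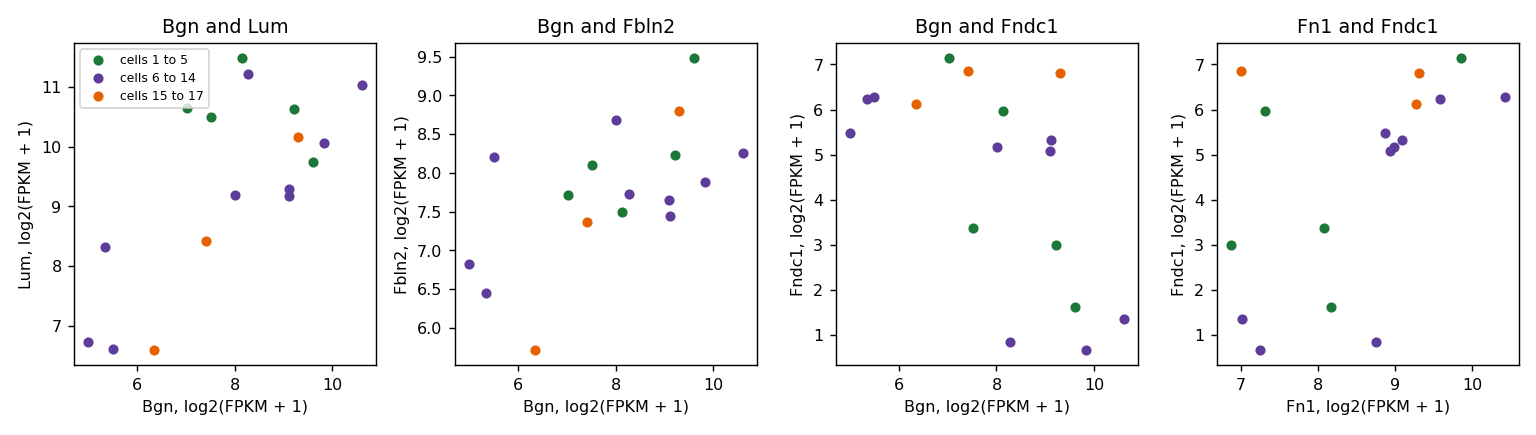
Levels of 4 pairs of genes in the 17 cells, in log2(FPKM + 1), 1 point a cell, coloured by set of cells. Lum and Fbln2 tend to be high where Bgn is high (r 0.70 and 0.60), and Fndc1 tends to be low there (r -0.60). Fndc1 and Fn1 tend to be high together (r 0.52), with 1 cell of the last set at the upper left. Cell 5 (Fn1 7.32, Fndc1 5.96) and cell 7 (Fn1 8.76, Fndc1 0.84) also lie off that trend.

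Among the pairs of the remaining genes, Ecm1 and Fndc1 had an r of -0.47 (rho -0.42), close to that of Lum and Fndc1, but it was -0.20 in cells 6 to 14 and -0.28 with set means subtracted. Ecm1 was at 0.34 with Fbln2 (rho 0.54), 0.21 with Lum and 0.16 with Fn1. Ecm1 and Abi3bp had an r of 0.30 but a rho of 0.63, and r was 0.68 without cell 16, so 1 cell set the weaker value. Vcan and Ecm1 were at -0.25 over all cells, -0.50 without cell 16 and -0.88 in cells 6 to 14. Prg4 had no r beyond 0.23 in either direction with any other of the 10 genes, and Mgp likewise over all cells, although Mgp and Fn1, at 0.06 over all cells, were at -0.59 in cells 6 to 14. Vcan was at -0.22 with Lum and 0.06 with Bgn, unlike the small proteoglycans with each other.

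**Figure D5:**
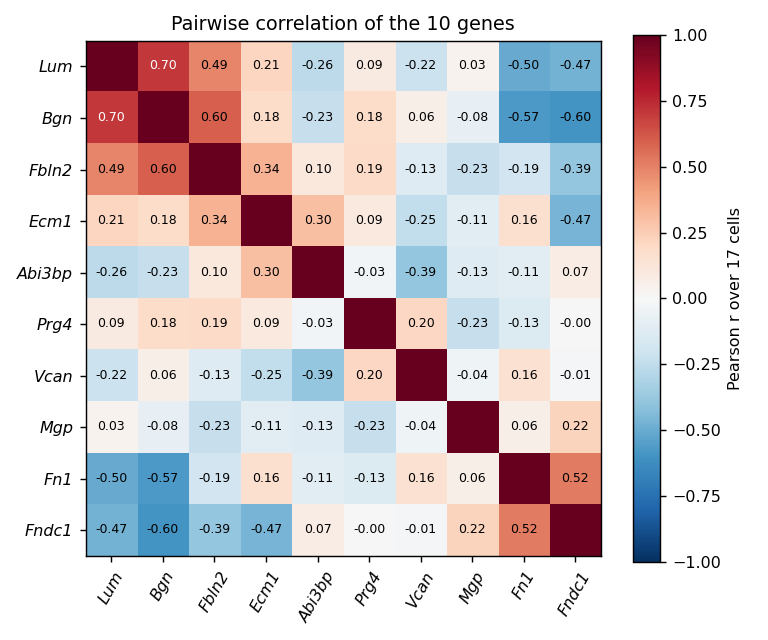
Pearson r over 17 cells for each pair of the 10 genes, red for positive and blue for negative. Lum, Bgn and Fbln2 form a red block at the upper left, with r from 0.49 to 0.70. Lum and Bgn are blue against Fn1 and Fndc1 at the right edge, and Fbln2 is paler there, at -0.19 and -0.39.

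Over all cells fibrillar collagen varied with Bgn and, less steadily, with Lum and Fbln2. Its r with Fn1 and Fndc1 was weaker and changed with the cells used. The mean level of Col1a1, Col1a2, Col3a1, Col5a1 and Col5a2 in a cell had an r of 0.65 with Bgn (rho 0.64), 0.54 with Lum (rho 0.41) and 0.51 with Fbln2 (rho 0.54), against -0.30 with Fn1 and -0.11 with Fndc1. Without the 2 cells farthest from its own median Lum dropped to 0.29, while Bgn was at 0.61. Without the 2 cells farthest from the median of the collagen mean, r was 0.56 with Bgn, 0.46 with Lum and 0.49 with Fbln2. In that setting it was -0.02 with Fn1 and 0.12 with Fndc1. Without the 2 cells farthest from the median of Fndc1, the collagen mean was at -0.39 with Fndc1. Without cell 15 it was at 0.36 with Fbln2. In cells 6 to 14 alone the collagen mean was at 0.71 with Bgn, 0.45 with Lum and 0.37 with Fbln2. In those cells it was at -0.44 with Fn1 and -0.07 with Fndc1. The fibroblast marker list, which holds 3 of those collagens, had an r of 0.48 with Bgn, 0.29 with Fbln2, 0.15 with Lum, -0.14 with Fn1 and 0.28 with Fndc1. The only measured immune marker, Csf1r, was at 0.40 with Lum, 0.38 with Fbln2, 0.20 with Bgn, -0.26 with Fn1 and 0.06 with Fndc1. The mean of the pericyte and smooth muscle markers had an r of 0.18 with Bgn, 0.28 with Lum, 0.26 with Fbln2, -0.22 with Fn1 and 0.21 with Fndc1. Fndc1 was at 0.49 with the adipocyte, 0.41 with the endothelial, 0.29 with the melanocyte and Schwann cell and -0.63 with the cartilage and synovial markers other than Prg4. Without the 2 cells farthest from the median of Fndc1 these were 0.30, 0.10, 0.36 and -0.50, and the rho of the last was -0.38 over all cells. Fn1 did not share these values, being at -0.10, -0.01, -0.19 and -0.11 with the same lists in that order. Bgn was at -0.34 with the melanocyte and Schwann cell markers, where Lum was at 0.09. With the adipocyte markers Bgn was at -0.26 and Lum at -0.28. With the endothelial markers they were at -0.10 and -0.16, and with the cartilage and synovial markers other than Prg4 at 0.10 and 0.15. The keratinocyte markers had an r of 0.06 with Bgn, -0.01 with Lum, 0.05 with Fbln2, -0.03 with Fn1 and -0.06 with Fndc1. Whether any of these cell type markers have a part in the contrast was not tested.

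The rows most like each gene, by Pearson r among the 3964 rows detected in at least 9 cells, gave the following neighbours. Each is the top of 3964 comparisons over 17 points, so high values arise in any such search. For Lum they were Tmbim1 (r 0.79), Pld3 (0.77) and Fos (0.75), and for Bgn they were Rdx (0.82), Trp53i13 (0.80) and Ergic3 (0.79). Fos is an immediate-early gene that tissue digestion is known to induce. For Fbln2 they were Btg2 (0.78), another immediate-early gene, Dld (0.74) and Cd302 (0.71).

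Fndc1 had the closest neighbours of the set: Itih5 (0.90), of the inter-alpha-trypsin inhibitor heavy chain family, Itgb3 (0.85), the beta 3 integrin subunit, and Lamb1 (0.85), a laminin chain. All 3 kept an r of 0.80 or more without the 2 cells farthest from the median of Fndc1. For Fn1 they were Efcab14 (0.77), Spsb1 (0.76) and Trip12 (0.76). For Abi3bp they were Egfr (0.82), the epidermal growth factor receptor, Mterf4 (0.78) and Slc43a3 (0.77). Vcan was nearest to Atxn10 (0.85), Txn1 (0.81) and Hsd17b12 (0.77), and Prg4 to Snap47 (0.78), Cks1b (0.78) and Tmed5 (0.77).

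For Ecm1 the neighbours Itm2b (0.84), Gstp1 (0.83) and Atp5j2 (0.82) rested on cell 16, without which r was 0.59, 0.38 and 0.29. For Mgp, Ccdc6 (0.72) was also close by rank (rho 0.88), whereas Hnrnph1 (0.68) and Sod1 (0.68) fell to 0.53 and 0.50 without cell 1.

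Other small leucine-rich proteoglycans were present beside Lum and Bgn. Of the 6 others measured, 2 were at FPKM 1 or more in all cells, the background share being 13% as above. The highest were Ogn (osteoglycin, mean log2 level 7.01, SD 2.36), Aspn (asporin, 6.45, SD 2.66) and Prelp (5.38, SD 1.65), each below Bgn at 7.96 per length. Their r with Bgn was 0.19, 0.14 and -0.11, and with Lum 0.21, 0.30 and -0.16. The other 3 had a positive r with both: Ecm2 0.66 with Lum and 0.39 with Bgn, Omd 0.51 and 0.26, and Podn 0.24 and 0.11. Omd was at FPKM 1 or more in only 5 cells. Of 9 other proteoglycans 2 were found in all cells, Sdc2 and Sdc4. Highest by mean were the cell-surface genes Sdc2 (syndecan-2, 6.40, SD 1.52), Gpc3 (glypican-3, 6.31, SD 2.76, found in 16 cells) and Sdc4 (5.21, SD 2.35).

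Of 35 other measured matrix glycoproteins 10 were found in all cells, against the same 13% of all rows, which is also the background for the counts of the lists that follow. They were led by Mfap5 (a microfibril protein, 9.87, SD 1.35), Dpt (dermatopontin, 9.09, SD 0.86) and Thbs2 (thrombospondin-2, 7.58, SD 1.98). Per length, Ecm1, at 11.16, was thus above every other measured member of that list. Whether it stays so with length multiplied in is not shown here. Efemp1, a fibulin named after its value was seen, had an r of -0.82 with Bgn, the opposite sign to that of its relative Fbln2. The fibulins Fbln1, Efemp2, Fbln5 and Fbln7 were at 0.04, 0.26, -0.20 and 0.25 with Bgn, so the value of Efemp1 does not describe the family.

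For the enzymes that build the sugar chains, the median of the mean log2 levels was 2.29 for 13 measured genes of the linker and chondroitin sulfate pathway, against 4.57 for the 6 other small leucine-rich proteoglycans, 2.81 for the 9 other proteoglycans and 1.89 over all rows. None of the 13 was found in all cells, where 13% of all rows were. The highest were Chst12 (3.23, SD 1.75), Chpf (3.04, SD 2.21) and Ust (2.69, SD 2.13), which are 2 sulfotransferases and a chondroitin polymerising factor. Ust had an r of -0.73 with Bgn. Of 2 measured keratan sulfate genes B4galt1 was at 3.79 (SD 1.71) and B4galt4 at 0.45 (SD 0.77). Ugdh, which makes the UDP-glucuronate used for these chains and for hyaluronan, had a mean log2 level of 8.33 (SD 1.93) and was found in all cells, as 1 of 5 genes of sugar and sulfate supply. The next were Ugp2 (4.72, SD 2.19) and Papss2 (3.23, SD 2.14).

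For the partners of versican, 3 of 6 measured hyaluronan genes were found in all cells: Tnfaip6, which modifies the hyaluronan matrix (10.14, SD 1.68), the hyaluronan synthase Has1 (6.72, SD 2.48) and the receptor Cd44 (5.14, SD 1.82). Vcan had an r of -0.11, -0.02 and 0.29 with them. Of 8 measured matrix proteases 5 were found in all cells, led by Mmp2 (8.22, SD 0.80), Mmp14 (6.81, SD 1.09) and Adamts1 (6.77, SD 1.70), a protease that cleaves versican and whose r with Vcan was 0.21.

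Of 9 measured receptor genes 5 were found in all cells, led by Itgav (6.47, SD 2.53), Itgb1 (5.98, SD 1.02) and Egfr (5.78, SD 1.75). Itgb1, a fibronectin receptor subunit, had an r of 0.43 with Fn1, and Itga5, its partner in that receptor, had 0.16. Itgav went the other way, at -0.28 with Fn1. Of the 3 genes for vitamin K-dependent carboxylation, which Mgp requires, Vkorc1 was found in all cells (9.86, SD 1.39), whereas the carboxylase Ggcx (2.23, SD 2.34) was in 8 and Vkorc1l1 (1.76, SD 2.09) in 7. Their r with Mgp was 0.04, 0.31 and -0.36.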

How the data were processed

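RNA of 17 single cells was measured from libraries made with a 3′ end kit and Nextera XT, per the labels' protocols. The submitters' processing notes name TopHat2, Cufflinks and GRCm38 without versions or settings. The values deposited by the authors are on a log scale, read here as log2 of FPKM plus 1; quantile normalisation is inferred from the equal sorted values. The design had assumed linear FPKM, so thresholds were converted: FPKM 1 is 1, FPKM 5 is 2.58, FPKM 10 is 3.46 and FPKM 100 is 6.66. Depth is unknown, so no detection limit was computed.

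Of 8446 rows 8438 (99.9%) matched GENCODE M21 on GRCm38, which gave coordinates and exonic lengths. For a symbol in several rows the row with the highest mean was used, and each of the 10 genes had 1 row. Sets of cells came from average-linkage clustering of Spearman correlations over 224 rows. The search for similar rows was tested on simulated data. Named genes were the 10 members, the 3 rows of highest r with each (without ribosomal protein genes and gene models) and the 3 highest other genes of each list; further genes were chosen after their values were seen. The members and lists were chosen with earlier results of these data known. Motifs were matched exactly in RefSeq promoter windows. Alternatives covered thresholds, the constant added before the logarithm, scaling, length, correlation measure, class membership and omitted cells. Scripts ran in Python 3.11.15 with scipy 1.17.1, numpy 2.4.6, matplotlib 3.10.9 and pandas 2.3.3.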

Additional observations from a re-analysis of the deposited data

How the results depend on the processing

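The difference between Lum with Bgn and the 6 glycoproteins, 1.23, moved by less than the SD of 1.88 over cells in every setting run that left Vcan and Prg4 out, lying between 0.86 with length multiplied in and 1.97 without Ecm1, and between 1.07 and 1.44 with any 1 cell left out. It turned to -0.48 with Vcan and Prg4 added to Lum and Bgn, whose lower levels produce the sign. The mean r over the 45 pairs, -0.02, was -0.0058 by Spearman, -0.029 with cells under FPKM 1 left out of a pair, 0.030 without cells 1 to 5, and -0.037 to -0.0075 with any 1 cell left out; these values all lie near 0 and the cause of their differences was not tested. The count of genes found in all cells, 9 at FPKM 1, was 6 at FPKM 5, 5 at FPKM 10 and 10 above the lowest value, and 9 with any 1 cell left out. Of 230 recomputed mean levels 228 moved by less than the SD over cells. The other 2 were Fn1 and Fbln2 multiplied by length and rescaled, at 10.35 and 8.73. Most of the 230 settings left out 1 cell or took the median, which cannot move a mean by its SD. The count therefore shows little about stability, and the same holds for the class difference with 1 cell left out. Rescaling cells to one sum changes almost nothing in equalised values and shows nothing about stability. Read as a natural logarithm, the class difference would be 1.77 on the log2 scale. The settings with natural logarithm, without cells 1 to 5, and for levels, counts and the class difference in cells 6 to 14 alone, were chosen after seeing the data. No paired analysis was possible because all cells form 1 group.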
